A study of Mus musculus with 24 samples.

Results

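The livers of furan-dosed and control mice were examined for 10 genes of fatty acid and triglyceride synthesis: Acly, Acaca, Acacb, Fasn, Scd1, Thrsp, Srebf1, Mlxipl, Gpam and Dgat2. They were taken by symbol from a table of 24015 genes, all 10 were found, and all 10 passed the filter on low counts in every comparison. Female mice of the B6C3F1 hybrid, labelled 5 to 6 weeks old (the age at purchase, with at least 7 days of acclimatization to follow), were gavaged for 21 days. The 4 control animals (numbers 2, 3, 4 and 6) received corn oil and the 4 furan animals (41, 42, 43 and 44) received furan at 8 mg per kg per day in corn oil. Furan is a heterocyclic compound that forms in heated food and is toxic to the rodent liver. Livers were collected 4 hours after the last dose and each was divided into 3 pieces, of which the first was snap frozen, the second lay in formalin for 18 hours and the third in formalin for 3 weeks before storage in paraffin. The 6 resulting groups of 4 libraries, 24 in all, are called fresh frozen, FFPE 18 h and FFPE 3 weeks (formalin-fixed, paraffin-embedded), each with a control and a furan group. RNA depleted of ribosomal RNA was sequenced from every piece. All groups share the strain, the sex, the feed and the corn oil, and the labels name no genetic change.

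The liver makes fatty acids from citrate that leaves the mitochondria. ATP citrate lyase (Acly) releases acetyl-CoA, acetyl-CoA carboxylase makes malonyl-CoA, fatty acid synthase (Fasn) builds palmitate, and stearoyl-CoA desaturase (Scd1) introduces a double bond. The carboxylase exists as a cytosolic enzyme encoded by Acaca, which feeds synthesis, and as an enzyme of the mitochondrial surface encoded by Acacb, whose malonyl-CoA restrains fatty acid entry into mitochondria. Glycerol-3-phosphate acyltransferase (Gpam) opens and diacylglycerol acyltransferase (Dgat2) closes the route to triglyceride. Insulin acts on these genes through SREBP-1c, a product of Srebf1, and glucose through ChREBP, the product of Mlxipl, while Thrsp encodes a small protein that promotes lipogenesis.

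Promoter sequences came from RefSeq on build GRCm38.p6, as the 250 bases before and 50 bases after a start, which covered 8 of the 10 genes with 12 starts. Scd1 and Dgat2 had no entry. The counts were made on another build (mm9) and hold no coordinates, so counts and starts cannot be matched to each other. The letters searched, on both strands, were CACGTG (the E-box core), TCACNCCAC (a sterol regulatory element), CCAAT (the CCAAT box) and GGGCGG (the GC box). CACGTG was in 7.15% of the 32851 promoters of the table and in 1 of the 8 genes, TCACNCCAC in 1.24% and in 1 gene, and Mlxipl was the gene in both cases. CCAAT was in 37.4% of promoters and in 7 of 8 genes, all but Acaca, and GGGCGG in 35.7% and in 4 of 8. Genes with more than 1 start had more chances of a match. A match is a description of letters and no binding was measured. The 250 bases before the start are shown for the carboxylase gene that fell with furan, for its paralog that did not pass, and for both starts of Mlxipl, on the plus strand in each case, with the matched letters in capitals.
Acacb, chr5:114165268-114165517: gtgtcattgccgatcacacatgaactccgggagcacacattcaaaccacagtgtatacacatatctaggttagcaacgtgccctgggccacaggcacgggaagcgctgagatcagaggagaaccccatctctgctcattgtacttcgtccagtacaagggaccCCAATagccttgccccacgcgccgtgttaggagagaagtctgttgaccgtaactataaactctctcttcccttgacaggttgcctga
Acaca, chr11:84195188-84195437: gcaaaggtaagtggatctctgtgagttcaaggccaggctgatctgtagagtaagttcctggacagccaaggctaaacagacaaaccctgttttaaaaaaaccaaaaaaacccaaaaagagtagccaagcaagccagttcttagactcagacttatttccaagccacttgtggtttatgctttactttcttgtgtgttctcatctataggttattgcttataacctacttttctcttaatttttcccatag
Mlxipl, upstream start, chr5:135089640-135089889: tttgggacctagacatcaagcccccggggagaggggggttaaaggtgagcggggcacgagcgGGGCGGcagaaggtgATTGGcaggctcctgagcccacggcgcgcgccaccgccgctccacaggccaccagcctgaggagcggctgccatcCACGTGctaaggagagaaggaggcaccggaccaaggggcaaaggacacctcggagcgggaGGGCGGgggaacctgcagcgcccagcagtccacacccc
Mlxipl, downstream start, chr5:135106641-135106890: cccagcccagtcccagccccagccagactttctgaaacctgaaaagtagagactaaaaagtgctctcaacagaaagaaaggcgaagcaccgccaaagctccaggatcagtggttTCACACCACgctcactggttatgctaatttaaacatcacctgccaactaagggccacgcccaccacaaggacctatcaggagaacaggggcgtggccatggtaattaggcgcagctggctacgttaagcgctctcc
Acacb held a single CCAAT and Acaca none of the 4 motifs. In Mlxipl the E-box, 2 GC boxes and a CCAAT box (read as ATTGG) preceded the upstream start, and the sterol element stood before the downstream start.

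Total counts per library ran from 37978435 to 49326373 in fresh frozen, 22889146 to 28054631 in FFPE 18 h and 5560002 to 11019297 in FFPE 3 weeks tissue. All 6 hepatocyte markers (Alb, Ttr, Apoa1, Serpina1a, Cps1 and Tat) had counts in every group, as the tissue label requires. The frozen library of control 3 stood apart: its deviation from the mean of its group had a root mean square over genes of 0.60 on the log2 scale, against 0.27 to 0.37 in the other frozen libraries, and correlated with transcript GC content at r = 0.50 across 14177 genes. The frozen libraries of controls 2, 4 and 6 correlated with GC content in the opposite direction (r = -0.44, -0.12 and -0.28). Deviations within a group of 4 sum to 0 for each gene, so these correlations are not independent of that of control 3. Among the 10 genes, GC content was highest in Srebf1 (58.4%), Fasn (57.9%), Acacb (56.7%), Mlxipl (56.6%) and Dgat2 (56.3%) and lowest in Scd1 (47.1%) and Acaca (49.2%). In frozen control 3, Acacb lay 0.83, Srebf1 0.77 and Fasn 0.62 above the group mean and Acaca 0.34 below it (deviation -0.34). In its FFPE pieces these 4 genes lay between -0.32 and 0.04. The frozen deviation of Gpam, with a GC content of 50%, was 0.30, above the 0.27 of both Mlxipl and Dgat2. Those of Thrsp (GC content 54%), Acly (52.1%) and Scd1 were 0.22, 0.01 and -0.23. Without this library the frozen furan changes of Acly, Scd1, Thrsp and Dgat2 moved by at most 0.10 on the log2 scale, and those of the other 6 genes are given with and without it. The part of GC content in them was not tested.

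Acacb and Dgat2 fell with furan in all 3 preservations and Mlxipl in both kinds of fixed tissue, and no gene of the 10 rose. In fresh frozen tissue 2 of 10 were lower (Acacb and Dgat2) and 0 higher at an adjusted p below 0.05 (edgeR's quasi-likelihood test, with Benjamini-Hochberg adjustment over all genes tested), where 1.2% of the 14122 genes tested were lower and 1.57% higher. In FFPE 18 h tissue 4 were lower (Acacb, Dgat2, Mlxipl and Srebf1) and 0 higher, against 7.72% lower and 7.82% higher of 14204 genes. In FFPE 3 weeks tissue 3 were lower (Acacb, Dgat2 and Mlxipl) and 0 higher, against 1.51% and 1.07% of 12983 genes. With the 3 pieces of each liver averaged, so that an animal is 1 value tested with limma, 3 were lower (again Acacb, Dgat2 and Mlxipl) and 0 higher, against 4.96% and 4.62% of 14901 genes. The median log2 fold change of the 10 genes was -0.36, -0.35, -0.37 and -0.37 in these 4 fits, and that of all genes tested was -0.01, 0.00, 0.01 and 0.00. Control and furan libraries did not overlap for 2, 4 and 3 of the 10 genes in fresh frozen, FFPE 18 h and FFPE 3 weeks tissue, where 13.5%, 20% and 8.68% of all genes did not overlap, and the animal means did not overlap for 2 of 10 (15.9% of all genes). In a liver sample, fewer cells of a type and less RNA per cell cannot be told apart. The labels name separate animals, so n counts mice.

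**Figure D1:**
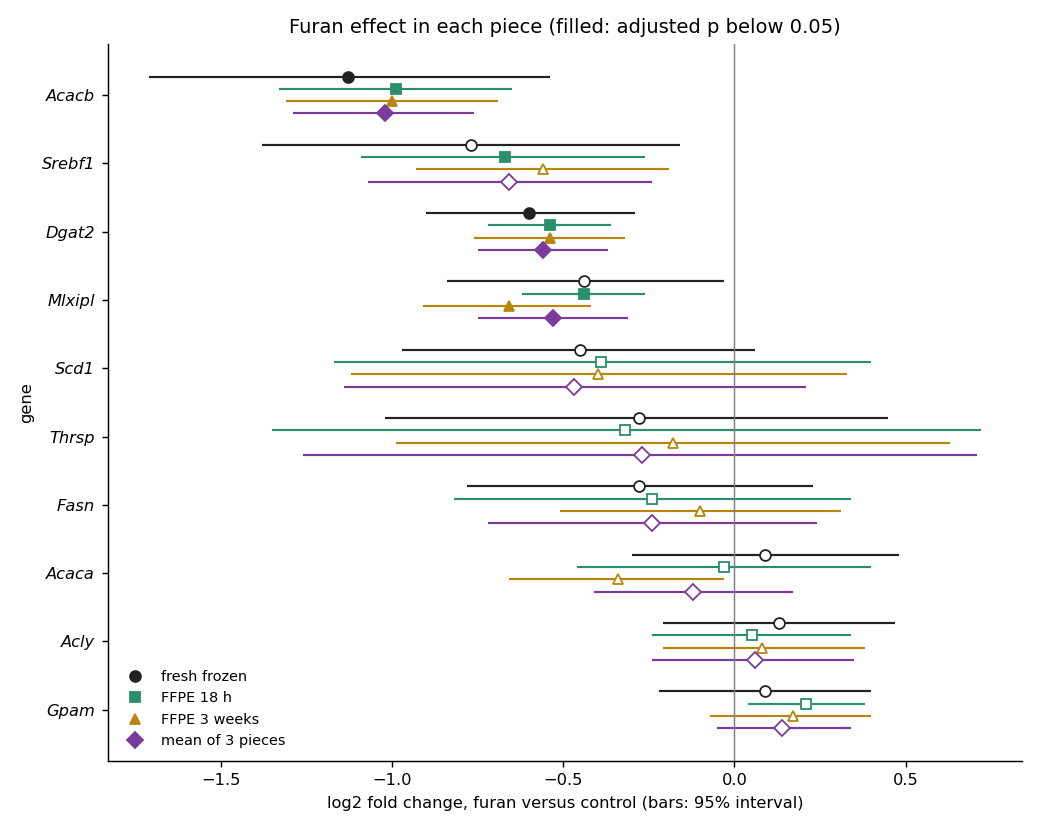
Log2 fold change of furan versus control (horizontal axis) for the 10 genes, in each preservation and for the mean of the 3 pieces of each liver, with 95% intervals and 4 against 4 animals in each fit. Filled symbols passed an adjusted p of 0.05. Acacb lies near -1 in all 4 fits, Dgat2 between -0.60 and -0.54, and the intervals of Thrsp are the widest.

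Of the regulators, Mlxipl, which encodes the glucose-responsive factor ChREBP, was lower with furan in fixed tissue. Levels are given as CPM, the counts of a gene per 1000000 counts of its library, scaled by TMM normalization over all 24 libraries. Its CPM in FFPE 3 weeks tissue were 317, 265, 337 and 265 in controls 2, 3, 4 and 6 and 172, 229, 164 and 174 in furan 41, 42, 43 and 44. The groups did not overlap, and furan 42 was the highest of its group. The log2 fold change was -0.66 ± 0.12 (SE, adjusted p = 0.0012). In FFPE 18 h tissue the controls held 369, 301, 361 and 306 CPM and the furan animals 239, 282, 239 and 219 CPM, again without overlap, at -0.44 ± 0.09 (adjusted p = 0.00247), a call that was lost in 1 fit over all 24 libraries (adjusted p = 0.124). In fresh frozen tissue the same size of difference, -0.44 ± 0.19, did not pass (adjusted p = 0.238), and it was -0.34 ± 0.20 without control 3. There the controls held 132, 168, 145 and 116 CPM and the furan animals 85.5, 147, 94.6 and 87.0 CPM, so that furan 42 lay within the control range. On the mean of the pieces Mlxipl fell by 0.53 (-0.53 ± 0.11, adjusted p = 0.00356), with furan 42 overlapping the controls.

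Srebf1, whose products are the SREBP-1 factors, had the largest decrease after Acacb on the mean of the pieces, but of the 3 preservations it passed only in FFPE 18 h tissue. FFPE 18 h controls held 162, 200, 227 and 247 CPM and furan animals 105, 113, 154 and 148 CPM, without overlap, a difference of -0.67 ± 0.18 on the log2 scale (adjusted p = 0.044). That call was lost when control 3, 4 or 6 or furan 41, 42 or 44 was left out (adjusted p up to 0.0992), without the filter on low counts (0.0721) and in 1 fit over all 24 libraries (0.266). In fresh frozen tissue the change was -0.77 ± 0.28 (adjusted p = 0.173), with controls at 98.7, 286, 161 and 173 CPM and furan animals at 71.1, 116, 126 and 108 CPM, and without control 3 it was -0.45 ± 0.27. Control 2 there lay inside the furan range. In FFPE 3 weeks tissue it was -0.56 ± 0.18 (adjusted p = 0.111). On the mean of the pieces it was -0.66 ± 0.18 with a 95% interval of -1.07 to -0.24 (adjusted p = 0.0575), and with the animal as replicate block over the 24 libraries it passed (adjusted p = 0.00561). That block fit used 1 within-animal correlation of 0.1 for all genes, so it treated the pieces of a liver as nearly independent, while Srebf1 in furan 41 deviated by -0.53, -0.29 and -0.37 in its 3 pieces.

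The 2 acetyl-CoA carboxylase genes gave different values. Acacb, of the mitochondrial enzyme, fell in every preservation. Fresh frozen controls held 135, 313, 126 and 181 CPM and furan animals 97.5, 98.2, 86.4 and 62.5 CPM. Every furan library was below every control, and control 3 was far above the other controls. The log2 fold change was -1.13 ± 0.27 (adjusted p = 0.0488), which was -0.77 ± 0.17 without control 3 (adjusted p = 0.0288). In FFPE 18 h tissue the controls held 194, 196, 169 and 234 CPM and the furan animals 125, 93.9, 99.3 and 78.5 CPM, at -0.99 ± 0.15 (adjusted p = 0.00281). FFPE 3 weeks controls held 104, 108, 118 and 154 CPM and furan animals 50.7, 65.3, 70.0 and 53.8 CPM, at -1.0 ± 0.15 (adjusted p = 0.000142). The groups did not overlap in either kind of fixed tissue, and control 3 was inside the control range there. The mean of the pieces gave -1.02 ± 0.12 (adjusted p = 0.000112), a 95% interval of -1.29 to -0.76.

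Acaca, of the cytosolic enzyme that supplies malonyl-CoA for synthesis, passed in no preservation. Its log2 fold change was 0.09 ± 0.18 in fresh frozen (-0.01 without control 3), -0.03 ± 0.18 in FFPE 18 h and -0.34 ± 0.15 in FFPE 3 weeks tissue. Fresh frozen libraries held 96.0, 75.8, 97.9 and 120 CPM in controls and 136, 80.7, 105 and 92.1 CPM in furan animals, and the groups overlapped. On the mean of the pieces the change was -0.12 with a 95% interval of -0.41 to 0.17 (adjusted p = 0.653). This interval and that of Acacb do not overlap, and the difference between the genes was not tested. The direction of Acaca turned when single libraries were left out in fresh frozen and FFPE 18 h tissue.

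Within a library, the ratio of Acacb counts to Acaca counts needs no scaling between libraries, and it was computed after the values of both genes were seen, as a description with no test. In fresh frozen tissue it was 1.41, 4.13, 1.29 and 1.51 in controls and 0.716, 1.22, 0.820 and 0.679 in furan animals. FFPE 18 h ratios were 1.97, 2.16, 1.70 and 1.93 in controls against 0.920, 1.21, 0.988 and 0.915, and FFPE 3 weeks ratios 1.24, 1.18, 1.36 and 1.60 against 0.535, 1.05, 1.15 and 0.865. All furan ratios were below all control ratios of the same preservation, and the gap was narrowest in FFPE 3 weeks and fresh frozen tissue, between 1.18 and 1.15 and between 1.29 and 1.22. Furan 42 had the highest furan ratio in both fresh frozen and FFPE 18 h tissue. The frozen ratio of control 3 was the highest of the 24.

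**Figure D2:**
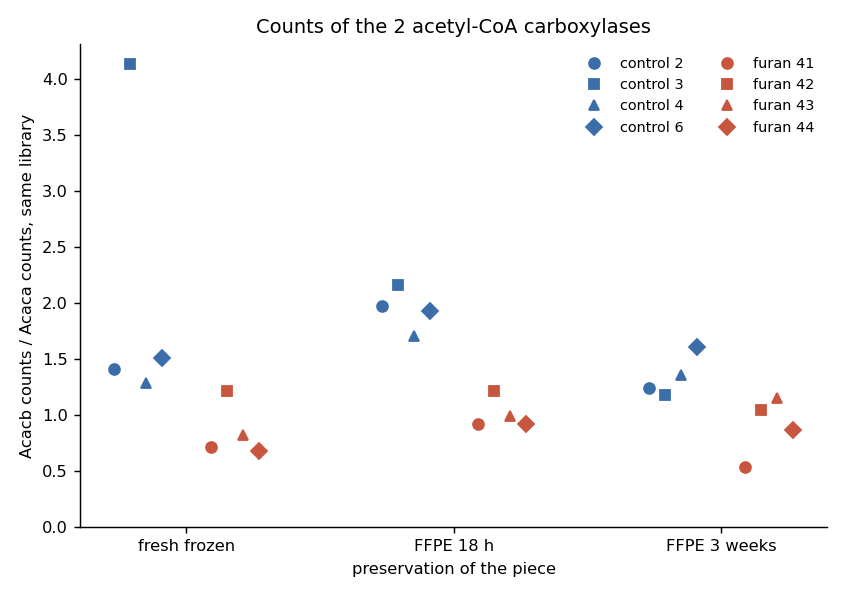
Ratio of Acacb to Acaca counts in each of 24 libraries (vertical axis, from 0) by preservation, blue for controls and red for furan, with the marker shape giving the animal. All furan points lie below all control points of the same preservation, and frozen control 3 stands alone at 4.13.

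The other genes of fatty acid synthesis did not pass. Acly, which makes cytosolic acetyl-CoA, had log2 fold changes of 0.13 ± 0.16, 0.05 ± 0.13 and 0.08 ± 0.14 in fresh frozen, FFPE 18 h and FFPE 3 weeks tissue, and 0.06 with a 95% interval of -0.24 to 0.35 on the mean of the pieces. Its fresh frozen libraries held 493, 538, 488 and 628 CPM in controls and 711, 430, 629 and 576 CPM in furan animals, so the furan group spanned a wider range than the controls at both ends. Fasn, which assembles palmitate, was at -0.28 ± 0.23, -0.24 ± 0.24 and -0.10 ± 0.19, and at -0.24 (-0.72 to 0.24) on the mean. Fresh frozen Fasn stood at 533, 1120, 688 and 681 CPM in controls and 676, 450, 791 and 570 CPM in furan animals, with control 3 highest and furan 42 lowest, and without control 3 the frozen change was -0.03 ± 0.18. In FFPE 18 h tissue controls ran from 767 to 916 CPM and furan animals from 428 to 953 CPM, a spread within the furan group (SD 227) above that of the controls (SD 69.9).

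Scd1, the desaturase, was the most abundant of the 10 and was lower in 3 of the 4 furan animals, without passing. Fresh frozen controls held 7050, 7070, 8340 and 11300 CPM and furan animals 9520, 4820, 4600 and 5700 CPM. FFPE 18 h libraries held 5720, 7840, 7580 and 10400 CPM against 9850, 4790, 4500 and 4890 CPM, and FFPE 3 weeks libraries 7390, 9930, 9520 and 12000 CPM against 11800, 5970, 5470 and 6080 CPM. In each preservation furan 42, 43 and 44 were below every control and furan 41 was above 3 of the 4 controls. The log2 fold changes were -0.45 ± 0.24, -0.39 ± 0.32 and -0.40 ± 0.30, and the mean of the pieces gave -0.47 (95% interval -1.14 to 0.21, adjusted p = 0.394). Furan 41 was picked out from these values, and leaving out the highest furan animal deepens the decrease by its choice. The -0.72 found on the mean of the pieces without it (adjusted p = 0.0106) is therefore a description. Scd1 has close paralogs, and how the authors counted reads that fit several genes is not given in the sources used here. Thrsp, the lipogenic protein that responds to thyroid hormone and carbohydrate, had the widest interval of the 10 in each fit and ran from 125 to 290 CPM in fresh frozen controls and from 72.7 to 229 CPM in furan animals. Its log2 fold changes of -0.28 ± 0.34, -0.32 ± 0.43 and -0.18 ± 0.34 did not pass, and the interval on the mean of the pieces, -1.26 to 0.71, holds changes of over 2-fold down.

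Of the first and last acyltransferases of triglyceride synthesis, the last was lower with furan and the first did not pass. Dgat2, which adds the third fatty acid, fell in every preservation. Fresh frozen controls held 583, 846, 626 and 788 CPM and furan animals 494, 477, 492 and 412 CPM. The furan animals lay within a narrow range (SD 38.7, against 126 in controls) below every control. The log2 fold change was -0.60 ± 0.14 (adjusted p = 0.0458), and -0.50 ± 0.11 without control 3 (adjusted p = 0.0124). FFPE 18 h controls held 517, 555, 563 and 699 CPM and furan animals 423, 397, 419 and 356 CPM, at -0.54 ± 0.09 (adjusted p = 0.000586). FFPE 3 weeks controls held 427, 423, 487 and 528 CPM and furan animals 356, 328, 319 and 264 CPM, at -0.54 ± 0.11 (adjusted p = 0.00331). Furan 44 was the lowest library of the 8 in all 3 preservations. The mean of the pieces gave -0.56 ± 0.09 (adjusted p = 0.000584), a 1.48-fold decrease.

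Gpam, the mitochondrial acyltransferase that starts glycerolipid synthesis, had log2 fold changes of 0.09 ± 0.14, 0.21 ± 0.08 and 0.17 ± 0.12, none of which passed (adjusted p = 0.782, 0.0861 and 0.641). The frozen value was 0.20 ± 0.11 without control 3. FFPE 18 h controls were close together at 273, 266, 267 and 278 CPM, and furan animals held 337, 252, 340 and 317 CPM. Only furan 42 was below the controls, and without it the FFPE 18 h change was 0.29 (adjusted p = 0.00512). Furan 42 was picked out from these values, and leaving out the lowest furan library raises the furan mean by its choice. That value is therefore a description. The mean of the pieces gave 0.14, with a 95% interval of -0.05 to 0.34.

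**Figure D3:**
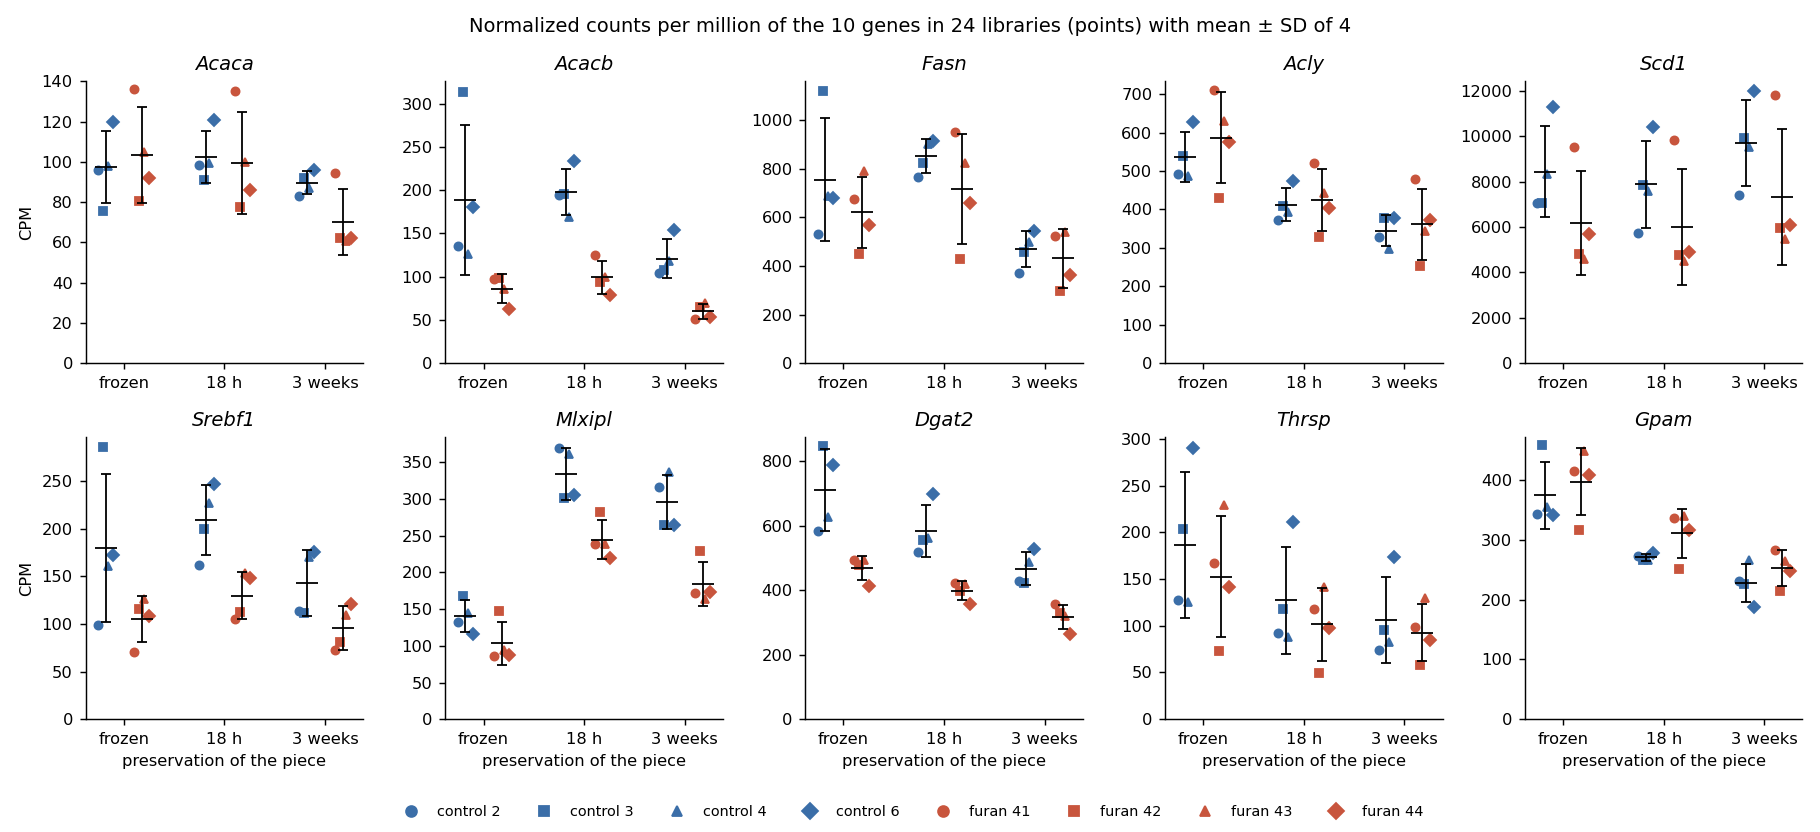
CPM of the 10 genes (vertical axes, from 0) in fresh frozen, FFPE 18 h and FFPE 3 weeks pieces, blue for controls and red for furan, with marker shape for the animal and bars for mean ± SD of 4. Acacb and Dgat2 separate in all 3 preservations, and furan 41 stands among the controls in Scd1.

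The calls in fresh frozen tissue were close to the threshold. Those of Acacb and Dgat2 were both lost when control 4, control 6 or any of the 4 furan libraries was left out (adjusted p = 0.0587 to 0.172), and both remained without control 2 or control 3. Dgat2 was also lost when all libraries were thinned to the smallest total (adjusted p = 0.0541). With the FFPE pieces alone averaged, an alternative chosen after control 3 was seen to stand apart, Acacb was at -1.01 ± 0.10, Dgat2 at -0.55 ± 0.08 and Mlxipl at -0.57 ± 0.09, and all passed (adjusted p = 2.04e-06, 0.000286 and 0.00056). Whether the furan effect differed between preservations was tested as an interaction. None of the 10 genes passed in FFPE 18 h versus fresh frozen, FFPE 3 weeks versus fresh frozen or FFPE 3 weeks versus FFPE 18 h, and by edgeR 0% of genes passed in each (239, 585 and 766 genes had an unadjusted p below 0.05, none of them among the 10). DESeq2 called 13 genes in the second and 32 in the third.

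Markers of other cell types moved with furan in part. The summed CPM of 5 sinusoidal endothelial markers ran from 512 to 547 in fresh frozen controls and 406 to 439 in furan animals, from 463 to 501 and 383 to 396 in FFPE 18 h, and from 387 to 417 and 322 to 387 in FFPE 3 weeks tissue. Adipocytes also express lipogenic genes, and the sum of 10 adipocyte markers was 25.9 to 30.7 CPM in fresh frozen controls and 19 to 21 in furan animals, 39.2 to 48.8 and 19.7 to 38 in FFPE 18 h, and 27.9 to 44.2 and 23 to 25.2 in FFPE 3 weeks tissue. In each group 1 to 5 of the 10 had no count. The largest part of the sum in FFPE controls was Adrb3, at 20.8 to 31.8 CPM in FFPE 18 h controls and 7.74 to 13.8 in furan animals. In fresh frozen tissue Adrb3 ran from 8.05 to 11.4 CPM in controls and 4.03 to 4.76 in furan animals, while Lipe and Fabp4 overlapped. Frozen totals of Adipoq, Cidea and Slc2a4 were 8, 3 and 29 counts in controls and 12, 18 and 44 in furan animals. Those of Plin1 and Cfd were 10 and 11 in controls and 0 and 3 in furan animals. Adipoq, the defining adipocyte gene, had 0 to 8 counts per library except for 77 in the FFPE 18 h piece of furan 44, where Cfd had 84 counts against 0 to 9 elsewhere. That piece was the lowest of its 8 for Acacb and Dgat2, and without it their FFPE 18 h changes were -0.91 (adjusted p = 0.00115) and -0.50 (adjusted p = 0.00272). The sums of 6 hepatocyte, 5 Kupffer cell and 5 stellate cell markers overlapped between treatments in each preservation. The part of these markers in the furan results was not tested.

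Other genes of the pathway, from lists written with earlier results known, changed in both directions on the mean of the pieces, where 4.62% of all genes were higher and 4.96% lower. Of 16 further lipogenic regulators, 1 rose and 2 fell, with a median log2 fold change of -0.02. Insig1, which retains the SREBP precursors in the endoplasmic reticulum, rose by 0.56 ± 0.09 (adjusted p = 0.000777), from 216 ± 7.09 to 311 ± 44.6 CPM in FFPE 18 h and from 274 ± 22.4 to 425 ± 36.1 CPM in FFPE 3 weeks tissue (SD, n = 4). Ppargc1b, a coactivator of SREBP-1, was at -0.90 ± 0.15 (adjusted p = 0.000641) and Rxra, the partner of several lipid-sensing receptors, at -0.33 ± 0.08 (adjusted p = 0.00933). In single preservations the counts of these regulators higher and lower were 0 and 0 in fresh frozen, 1 and 3 in FFPE 18 h and 1 and 0 in FFPE 3 weeks tissue.

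Of 9 genes that supply acetyl-CoA, citrate or NADPH, 2 rose and 0 fell (median 0.08). They were the enzymes of the oxidative pentose phosphate pathway, Pgd at 0.64 ± 0.15 (adjusted p = 0.0127) and G6pdx at 0.57 ± 0.18 (adjusted p = 0.049). Acss2, which makes acetyl-CoA from acetate, was at -0.38 ± 0.24 and did not pass. Of 12 elongases, desaturases and related genes, 1 rose and 3 fell (median -0.07). Elovl3 was at -2.85 ± 0.49 (adjusted p = 0.00108), with 5.94 ± 3.09 CPM in FFPE 18 h controls and 0.880 ± 0.518 in furan animals. Elovl2, which elongates polyunsaturated fatty acids, was at -0.34 ± 0.09 (adjusted p = 0.02) and Elovl1, an elongase of very long chains, at 0.42 ± 0.11 (adjusted p = 0.0248).

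Of 15 further genes of triglyceride synthesis, 1 rose and 0 fell (median 0.02). It was Mogat1, a monoacylglycerol acyltransferase of low abundance, with 0.191 ± 0.192 CPM in fresh frozen controls and 0.781 ± 0.101 in furan animals, and a fitted change of 2.22 ± 0.55 (adjusted p = 0.0148) that depends on the prior count because FFPE 3 weeks controls had none. Agpat2 was at 0.29 ± 0.10 and Agpat6 at -0.17 ± 0.08, and neither passed. Of 16 lipid droplet and lipolysis genes, 2 rose and 3 fell (median -0.14). Abhd5, the coactivator of adipose triglyceride lipase, rose by 0.75 ± 0.10 (adjusted p = 0.000133), Hsd17b13 by 0.40 ± 0.10 (adjusted p = 0.0175), and the droplet coat gene Plin3 was at -0.54 ± 0.12 (adjusted p = 0.00787). None of 6 genes of very low density lipoprotein assembly passed (median 0.08, Mttp 0.09 ± 0.09).

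Of 10 glycolytic and sugar-responsive genes 1 fell and 0 rose (median -0.15). It was Gckr, at -0.60 ± 0.09 (adjusted p = 0.000454), which also passed in each preservation (adjusted p = 0.026, 0.000127 and 0.0115). Of 11 insulin signalling and energy-sensing genes 2 rose and 0 fell (median -0.08), Irs1 by 0.43 ± 0.08 (adjusted p = 0.00239) and Prkaa2, a catalytic subunit of AMP-activated kinase, by 0.27 ± 0.08 (adjusted p = 0.0453). Of 14 genes of fatty acid import and oxidation 3 fell and 0 rose (median -0.20). Acsl1, which activates long-chain fatty acids, was at -0.55 ± 0.10 (adjusted p = 0.00112) and passed in each preservation, from 2560 ± 387 to 1670 ± 226 CPM in fresh frozen tissue. Slc27a2 was at -0.42 ± 0.08 (adjusted p = 0.00381) and Cpt1a, whose product malonyl-CoA inhibits, at -0.26 ± 0.08 (adjusted p = 0.0454).

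Fixation moved the 10 genes unequally, and Mlxipl was the only one of them called higher than in fresh frozen tissue without the animal as a block. Preservation cannot be told apart from the extraction kit, the tissue input or the piece of liver, which changed with it. In FFPE 18 h versus fresh frozen tissue, over 8 animals in each, 1 of 10 was higher (Mlxipl) and 3 lower (Acly, Gpam and Dgat2), where 26.6% of 14843 genes were higher and 27.3% lower. In FFPE 3 weeks versus fresh frozen tissue 1 was higher (Mlxipl) and 7 lower, all but Scd1 and Srebf1 of the others, where 23% of 14253 genes were higher and 25.8% lower. In FFPE 3 weeks versus FFPE 18 h tissue 0 were higher and 7 lower, all but Acly, Scd1 and Thrsp, where 14.9% of 14414 genes were higher and 17.5% lower. The median change of the 10 genes was -0.03, -0.57 and -0.30, against 0.01, -0.02 and -0.05 over all genes tested.

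Mlxipl was higher in fixed tissue in 8 of 8 animals, by 0.84 to 1.49 on the log2 scale in FFPE 18 h and by 0.64 to 1.27 in FFPE 3 weeks tissue. The smallest of these differences were those of control 3 and furan 42, the animals with the highest frozen values. Control means were 140 ± 22.1 CPM fresh frozen, 334 ± 35.8 in FFPE 18 h and 296 ± 37 in FFPE 3 weeks tissue (SD, n = 4), and the fitted changes against fresh frozen were 1.24 ± 0.11 and 0.97 ± 0.12 (adjusted p = 1.68e-08 and 1.23e-07). Gpam, Dgat2, Acly and Thrsp were lower in 8 of 8 animals in both comparisons with fresh frozen tissue. Their changes in FFPE 3 weeks tissue were -0.67 ± 0.09, -0.57 ± 0.09, -0.65 ± 0.11 and -0.74 ± 0.28 (adjusted p = 1.78e-06, 9.51e-06, 2.77e-05 and 0.0406), of which that of Thrsp no longer passed without control 2, 3 or 4 or furan 41 or 44 (adjusted p up to 0.111), nor with DESeq2 size factors (0.0576), no filter (0.0547) or thinning (0.058). Acaca at -0.33 ± 0.12 (adjusted p = 0.0248) no longer passed without control 4, control 6 or furan 43, nor with DESeq2 size factors (0.0632) or DESeq2's own test (0.074). Fasn was lower in 8 of 8 animals in FFPE 3 weeks tissue, by 0.32 to 1.29, while in FFPE 18 h tissue it ranged from -0.44 to 0.52 within animals. Scd1 was higher in FFPE 3 weeks tissue in 8 of 8 animals, by 0.07 to 0.49, at 0.24 ± 0.20 (adjusted p = 0.331).

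The pieces come from the same animals, and with the animal as replicate block Scd1 passed (adjusted p = 0.000562). The block also brought Thrsp (-0.57, adjusted p = 1.02e-06) and Srebf1 (0.31, adjusted p = 0.031) past the threshold in FFPE 18 h versus fresh frozen tissue, and all 10 genes in FFPE 3 weeks versus FFPE 18 h tissue, where Scd1 was at 0.31 (adjusted p = 4.41e-19). The summed CPM of 6 hepatocyte markers was lower with fixation, from 151000 to 181000 in fresh frozen to 92900 to 110000 in FFPE 18 h and 52200 to 67200 in FFPE 3 weeks libraries. Its part in these shifts was not tested.

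**Figure D4:**
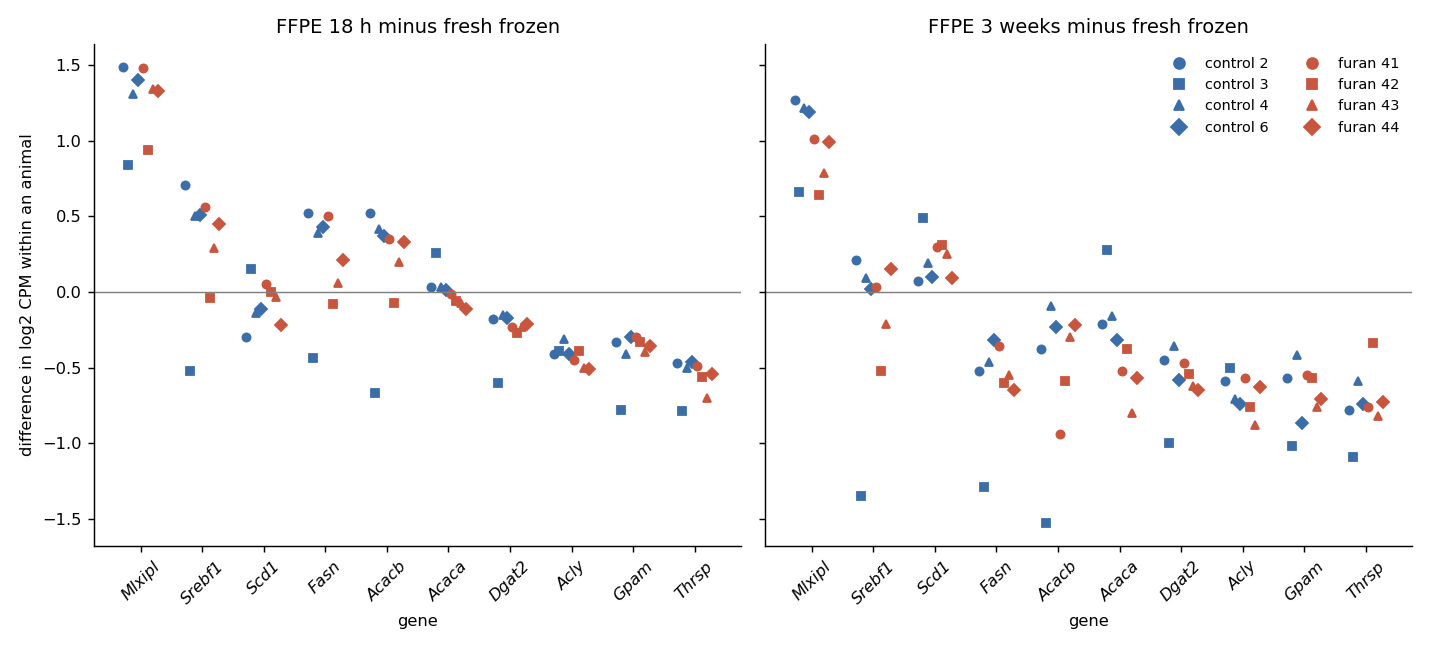
Difference in log2 CPM between a fixed piece and the frozen piece of the same liver (vertical axis) for the 10 genes, with 1 point per animal, blue for controls and red for furan. Mlxipl lies above 0 in 8 of 8 animals in both panels, and control 3 has the lowest point for Srebf1, Fasn and Acacb in both.

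Levels per length of transcript gave the order of the genes. In fresh frozen controls Scd1 stood at 1750 ± 414 CPM per kilobase, Dgat2 at 314 ± 55.8, Thrsp at 146 ± 61.2, Acly at 122 ± 14.7, Fasn at 75.2 ± 25.2, Gpam at 74.9 ± 11.3, Srebf1 at 41.8 ± 18.1, Mlxipl at 38.7 ± 6.07, Acacb at 22.3 ± 10.2 and Acaca at 10.8 ± 2 (SD, n = 4). Libraries of neighbours in this order overlapped for Thrsp and Acly, Acly and Fasn, Fasn and Gpam, Srebf1 and Mlxipl, and Mlxipl and Acacb. In fresh frozen furan animals Acaca stood at 11.5 ± 2.64 and Acacb at 10.2 ± 1.97 CPM per kilobase, and these overlapped, as they did in FFPE 18 h furan animals at 11 ± 2.81 and 11.7 ± 2.28. In FFPE 18 h controls Mlxipl stood at 92.3 ± 9.86 CPM per kilobase, in the fifth place above Fasn at 84.9 ± 6.95.

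Animals kept some of their differences through all 3 pieces. Control 6 was the highest control for Scd1, Thrsp and Acaca in each preservation, and held the highest place in 20 of 30 rankings of the controls (10 genes in 3 pieces). Thrsp in control 6 was 290, 211 and 174 CPM, against at most 203, 118 and 95.8 CPM in the other controls. Furan 41 was the highest furan animal for Scd1, Acly, Acaca and Dgat2 in each preservation, and the lowest for Srebf1. Furan 42 was the lowest for Thrsp, Fasn, Acly and Gpam in each preservation and the highest for Mlxipl. Thrsp in furan 42 was 72.7, 49.5 and 57.7 CPM. Of 20 rankings of a gene within a treatment, the same animal was highest in all 3 pieces in 9, of which 3 were among controls and 6 among furan animals, and the same animal was lowest in 9, of which 2 and 7. These rankings were looked at after the values were seen and carry no test. Frozen control 3 was the highest frozen control for 6 genes (Acacb, Fasn, Srebf1, Mlxipl, Dgat2 and Gpam) and held none of these places in FFPE tissue.

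**Figure D5:**
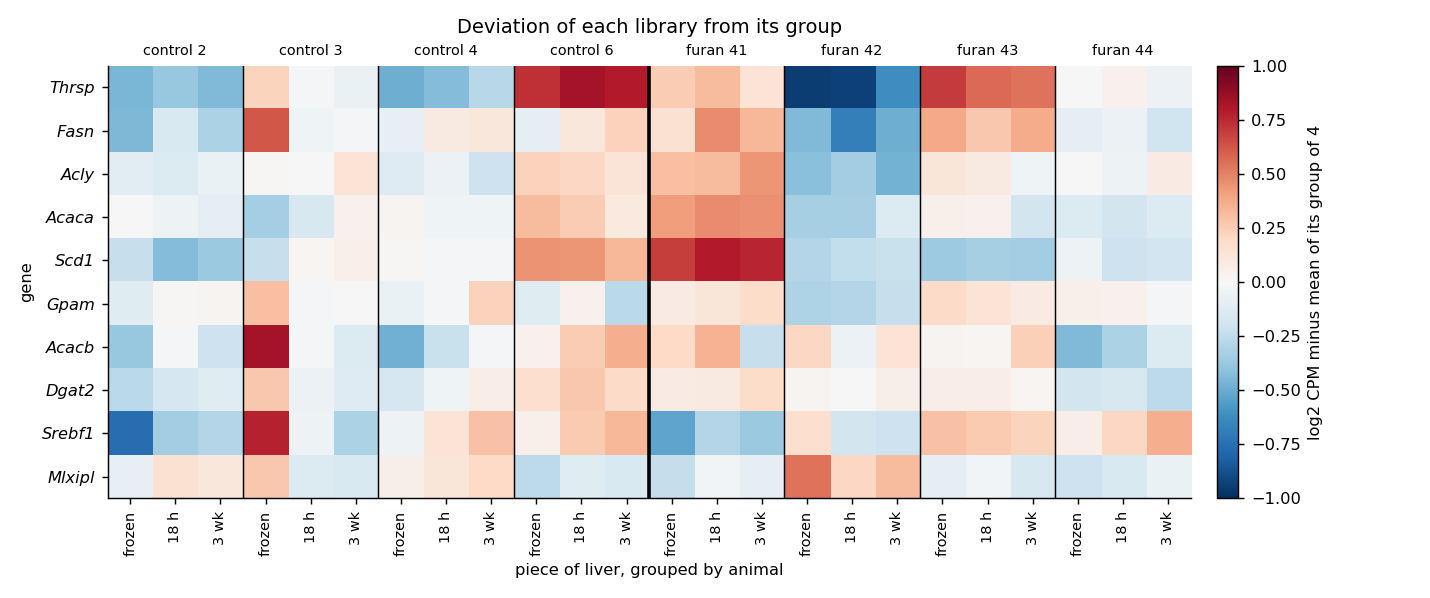
Log2 CPM of each library minus the mean of its group of 4 (colour, red above and blue below), with genes in rows and the 3 pieces of each of 8 animals in adjacent columns. Control 6 is red for Thrsp and Scd1 and furan 42 blue for Thrsp, Fasn and Acly in all 3 pieces, and only the frozen piece of control 3 is strongly red for Acacb, Srebf1 and Fasn.

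The likeness of the genes was measured across the 24 libraries after the mean of each preservation was subtracted. The points come from 8 animals, share libraries and include the furan difference, so the correlations are descriptions. Acacb and Dgat2 were most alike (Pearson r = 0.94), and Srebf1 and Mlxipl were each most like Acacb (0.76 and 0.75). Acaca was most like Scd1 (0.77), Acly like Acaca (0.69), and Fasn and Thrsp like each other (0.76). Gpam had a correlation of -0.03 with the mean of the other 9, and its most similar gene was Acly at 0.50. Acly and Mlxipl went in opposite directions (r = -0.53). Of 10607 other genes with a mean log2 CPM of at least 1 in every preservation, the 10 most like the mean of the set were Adcy6 and Chdh (0.93), Fnip2 and Apoa5 (0.92), Pklr, Ttc23, Uox and Retsat (0.90), and Oaf and Hook2 (0.89). Pklr encodes the liver pyruvate kinase, Apoa5 an apolipoprotein of triglyceride metabolism, Chdh choline dehydrogenase, Uox urate oxidase and Retsat a retinol saturase.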

How the data were processed

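RNA-seq libraries depleted of ribosomal RNA were made from 3 pieces of each of 8 livers. The deposited values are raw counts per gene, and per the submitters' processing notes the authors used CASAVA 1.8.2, STAR 2.3.0 and featureCounts 1.4.4 on mm9; how strand and reads that fit several genes were handled, and which gene models were used, is not given in the sources used here. All 24 libraries were matched to animals and groups by their labels, every value was whole, no 2 columns were identical, and 4185 of 24015 genes had no count.

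Counts were tested with edgeR 4.0.16 in R 4.3.3 (filterByExpr, TMM, quasi-likelihood test, Benjamini-Hochberg adjustment over all genes tested, threshold 0.05). Furan was tested within each preservation (4 against 4 animals), and preservations and interactions over the 16 libraries of each pair. For the mean of the pieces, log2 CPM (prior count 2) was averaged per animal and tested with limma 3.58.1. SE is the estimate over the root of F in edgeR. Intervals use the t quantile at the total degrees of freedom of the moderated fit, residual plus prior. CPM used 1 TMM scale over the 24 libraries. Lengths and GC content were medians over GENCODE M21 transcripts with a RefSeq accession, or over all transcripts of a gene that had none. GC content was available for 95.1% of 14901 genes. The tests were checked on simulated data.

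The 10 genes, the pathway and marker lists and the tests were chosen with earlier results of these data known. Named were the 10 genes and, per pathway list, up to 3 genes with the smallest p on the mean of the pieces plus any called in all 3 preservations; 1 gene that this rule names is not reported here. Animals are paired across preservations, since each liver was divided; the deviations of pieces of 1 animal correlated at -0.01 to 0.25, and in 21 of 24 pairs of pieces the best correlation was with the same animal. Alternatives were DESeq2 1.42.0 and its size factors, no filter, 1 fit over 24 libraries, summed pieces, a smaller prior count, thinning, animal blocks and leaving out each animal. Figures were drawn with matplotlib 3.10.9.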

Additional observations from a re-analysis of the deposited data

Results flagged for a closer look

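Each of the 60 groups of 4 libraries (10 genes, 6 groups) was examined for a single library far from the other 3, and 6 groups held one. In independent groups chance gives about 1 in 20. These groups share livers and genes that vary together, so that rate cannot show whether 6 is more than chance gives. Among furan animals, furan 41 stood apart in 3. Its Acaca was 94.6 CPM in FFPE 3 weeks tissue, with the other furan animals at 60.7 to 62.4 CPM. Its Scd1 was 9850 CPM in FFPE 18 h tissue against 4500 to 4890 CPM, and 11800 CPM in FFPE 3 weeks tissue against 5470 to 6080 CPM. Furan 42 stood apart for Mlxipl, at 147 CPM in fresh frozen tissue against 85.5 to 94.6 CPM and at 229 CPM in FFPE 3 weeks tissue against 164 to 174 CPM. Gpam in frozen control 3 was 459 CPM, with the other controls at 342 to 355 CPM. Scd1 of furan 41 and Mlxipl of furan 42 stood apart in 2 pieces of the liver each, and Gpam of control 3 in its frozen piece alone.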

How the results depend on the processing

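In the 4 furan fits, Acacb, Dgat2, Mlxipl, Srebf1, Scd1 and Gpam had 1 direction under each alternative run. In 1 fit over 24 libraries, FFPE 18 h tissue had 305 genes and 2 of the 10 called for furan (Srebf1 at adjusted p = 0.266 and Mlxipl at 0.124 were lost), FFPE 3 weeks tissue 1549 genes, FFPE 18 h versus fresh frozen 5224 genes, and the interactions of furan with FFPE 3 weeks versus fresh frozen and versus FFPE 18 h 4 and 5 genes. DESeq2 called 1004 genes for furan in fresh frozen tissue and 13 and 32 in those interactions. Thinned to the smallest total, fresh frozen tissue had 238 genes and 1 of the 10 (Acacb). With the animal as replicate block, furan on the mean of the pieces had 2604 genes and 4 of the 10, and the preservation comparisons 6, 9 and 10 of the 10 in place of 4, 8 and 7; the block added no interaction among the 10. In FFPE 3 weeks versus fresh frozen tissue, 6 of the 10 passed with DESeq2 size factors and 7 each without the filter, with DESeq2 and thinned. Dgat2 in FFPE 18 h versus fresh frozen tissue was lost when thinned (adjusted p = 0.0587). Without the filter Srebf1 was lost for furan in FFPE 18 h tissue (adjusted p = 0.0721) and passed in FFPE 3 weeks tissue (0.00215), and Acaca was at -0.01 in FFPE 18 h versus fresh frozen tissue. With 1 library or animal left out, genes called for furan ran from 99 (without furan 44) to 1148 (without control 3) in fresh frozen tissue, where 392 were called with all, with 0 to 2 of the 10; from 218 (without furan 44) to 280 in FFPE 3 weeks tissue; and from 934 (without furan 44) to 1430 on the mean. The last 2 interactions ran from 0 to 1. Values of genes that turned sign ran, for furan in fresh frozen tissue, from -0.07 to 0.20 for Acaca and -0.55 to 0.01 for Thrsp; in FFPE 18 h tissue from -0.22 to 0.07 for Acaca, -0.07 to 0.15 for Acly and -0.52 to 0.03 for Thrsp; in FFPE 3 weeks tissue from -0.39 to 0.16 for Thrsp, -0.08 to 0.21 for Acly and -0.23 to 0.03 for Fasn; on the mean from -0.06 to 0.20 for Acly and -0.47 to 0.01 for Thrsp; and for Acaca in FFPE 18 h versus fresh frozen tissue from -0.02 to 0.02. Srebf1 on the mean passed without the filter (adjusted p = 0.0433), with summed counts (0.0451), without control 2 (0.00222) and without furan 43 (0.0442). The cause of these changes was not tested. At 5560002 to 11019297 counts per library, FFPE 3 weeks tissue gives the least precise low counts.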
